A study of Homo sapiens with 12 samples.

Results

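The genes described here are the 35 aminoacyl-tRNA synthetases matched by symbol to 60617 Ensembl genes in a count table of A549 cells, a human lung cancer cell line. Of these, 19 encode cytosolic enzymes and 16 encode mitochondrial enzymes. The list was set by gene name, with earlier results of these data known. RNA was sequenced in 12 libraries, with 3 in each of 4 groups: unmodified cells (WT); cells whose genotype label is YTHDF1 knockout; cells treated with small interfering RNA against ARID1A (siARID1A); and YTHDF1 knockout cells given the same small interfering RNA (the combined group). YTHDF1 is a reader of N6-methyladenosine in messenger RNA, and ARID1A is a subunit of the SWI/SNF chromatin remodelling complex. Titles describe the YTHDF1 cells as a knockdown, and no label names a control small interfering RNA or says whether the knockout cells were 1 clone. Without a named control, ARID1A loss and the small interfering RNA treatment itself cannot be told apart in changes described below as silencing. Titles call the libraries biological replicates, but no label says that they came from separate cultures, so the p-values measure the spread between these libraries, which may be technical.

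Aminoacyl-tRNA synthetases join each amino acid to its transfer RNA, the step that fixes which amino acid a codon means. Most cytosolic enzymes carry a 1 at the end of the symbol (FARSA and FARSB, the 2 subunits of the phenylalanine enzyme, do not), and mitochondrial enzymes, made from nuclear genes and imported, carry a 2. GARS1 and KARS1 each encode both the cytosolic and the mitochondrial form and are counted here as cytosolic. Several cytosolic enzymes sit together in the multisynthetase complex. In amino acid shortage, uncharged transfer RNA activates the kinase GCN2, translation of the transcription factor ATF4 rises, and ATF4 acts on genes for amino acid synthesis, transport and charging. C/EBP-ATF response elements are the composite sites at which ATF4 and its partners bind such genes.

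A core shared by such elements, TGATGNAA, was searched on both strands from 250 bases before to 50 bases after the start of each gene in RefSeq promoter sequences (GRCh38.p14). Counting a gene once if any of its windows held it, the core was present in 1217 of 27305 genes (4.46%), in 7 of 16 cytosolic members with a promoter entry (43.75%) and in 1 of 14 mitochondrial ones (7.14%). Counted by window, it was in 1270 of 35116 (3.62%), 7 of 21 cytosolic (33.3%) and 1 of 18 mitochondrial windows (5.56%), and CARS1, GARS1 and TARS1 each had another window without it. AARS2, LARS1, VARS1, VARS2 and YARS1 had no entry. All 8 matches are shown because the siARID1A changes are also given by match. Each line gives 30 bases on the strand of the gene, 5′ to 3′, with the match or its reverse complement in capitals.
AARS1 (chr16:70289675-70289704, minus strand): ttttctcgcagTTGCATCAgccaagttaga
CARS1 (chr11:3057407-3057436, minus strand): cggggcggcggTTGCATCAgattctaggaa
GARS1 (chr7:30594834-30594863, plus strand): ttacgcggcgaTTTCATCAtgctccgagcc
IARS1 (chr9:92293692-92293721, minus strand): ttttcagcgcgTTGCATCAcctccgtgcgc
MARS1 (chr12:57488053-57488082, plus strand): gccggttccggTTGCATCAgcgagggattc
NARS1 (chr18:57621804-57621833, minus strand): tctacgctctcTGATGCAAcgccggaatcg
TARS1 (chr5:33440956-33440985, plus strand): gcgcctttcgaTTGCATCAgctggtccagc
YARS2 (chr12:32756076-32756105, minus strand): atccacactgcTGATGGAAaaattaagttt
The match lay across the start of CARS1 and MARS1, within 25 bases of it in GARS1, IARS1, NARS1 and TARS1, and farther upstream in AARS1 (179 bases) and YARS2 (189 bases). In 5 of the 7 cytosolic genes the same 8 bases, TTGCATCA, stood on the strand of the gene. A match is a description of the letters and not evidence of binding.

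Library totals ran from 30220717 to 45042635 counts. Levels are given as CPM, counts scaled to a common library total after TMM scaling, and changes are log2 fold changes from edgeR's quasi-likelihood fit with a standard error (SE) from the spread of the replicates, called where the Benjamini-Hochberg adjusted p over 18524 tested genes was under 0.05. YTHDF1 stood at 88.2 CPM in WT and 24.9 in YTHDF1 KO, and ARID1A at 164 in WT and 42.5 in siARID1A. WT replicate 2 stood apart: 4.85% of its counts were mitochondrially encoded, against 7.90% and 8.23% in the other WT libraries. Counts of calls against WT are therefore also given without it. Of the epithelial markers, KRT8, KRT18 and CDH1 were detected (4799, 2287 and 104 CPM in WT), EPCAM was low (3.52) and KRT19 was near 0 in WT, while the blood markers PTPRC and CD3E and the alveolar marker SFTPC were below 0.2 CPM in every library and the fibroblast gene COL1A1 was detected (43.1 CPM in WT). Genes of chromosomes 2 and 9 were shifted as blocks between groups, which touches FARSB, MARS2 and IARS1. These are bulk libraries, in which fewer cells of a type and less RNA per cell cannot be told apart.

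In WT cells most cytosolic enzymes had higher transcript levels per length than the mitochondrial ones, except that IARS2 ranked with the highest cytosolic genes and HARS1 and CARS1 with the mitochondrial ones. Per kilobase of annotated exon, AARS1, the alanine enzyme, was highest at 115 CPM, and its 3 WT libraries lay above those of every other member. IARS1 (75.1) and GARS1 (75) followed with overlapping libraries, then NARS1, EPRS1, TARS1 and KARS1 between 55.2 and 60.6, each overlapping its neighbour in the order. HARS1 (12.4) and CARS1 (8.74), the histidine and cysteine enzymes, were lowest, with no overlap with each other or with the next gene. Among mitochondrial enzymes IARS2 reached 71.5 CPM per kilobase, above every library of the next gene, EARS2 (13.4). FARS2, WARS2 and PARS2 were the lowest tested members (2.56, 2.44 and 2.34) and their libraries overlapped. These values rest on exon-union lengths, which also count exons that A549 cells may not use.

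SARS2, the mitochondrial serine enzyme, was the 1 member left out of the tests, with 1 to 7 counts per library. On GENCODE 29 its exons overlap those of AC011455.2 on the same strand, which had 0 counts in all libraries, and those of MRPS12 on the opposite strand. The part of these overlaps in its low count was not tested.

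Most of the cytosolic synthetases were lower with siARID1A. Relative to WT, 14 of 19 were lower and 0 were higher, with a median log2 fold change of -0.47, against -0.01 over all genes tested. Over all genes tested, 23% were called lower and 22.1% higher, so the share of cytosolic members called lower lay above the background. No cytosolic member above WT had an unadjusted p under 0.05, and DESeq2 called 0 higher. The 14 were IARS1, CARS1, YARS1, AARS1, WARS1, GARS1, MARS1, TARS1, VARS1, EPRS1, SARS1, LARS1, HARS1 and NARS1, in order from -1.27 to -0.18. The 5 that did not pass lay from -0.08 in FARSA to 0.08 in FARSB, with KARS1, QARS1 and RARS1 between them. Without WT replicate 2 the count was 13, and outside chromosomes 2 and 9, with both classes counted, 17 of 31 tested members were lower. In the same comparison 3 of the 5 epithelial markers were higher (CDH1 0.72, EPCAM 1.22 and KRT19, which stayed under 1.3 CPM) and KRT8 was lower (-0.41), and of the 4 A549 markers AKR1C2 (0.31) and ALDH1A1 (0.29) were higher. Their part in the synthetase result was not tested.

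IARS1, the isoleucine enzyme (chromosome 9, 92210207 to 92293756, GRCh38), had the largest change. Its level was 557, 521 and 588 CPM in the WT libraries and 239.6, 232 and 219 in the siARID1A libraries. The groups did not overlap, and siARID1A stood at 41.4% of WT (log2 -1.27, SE 0.06, adjusted p = 2.68e-13). CARS1, the cysteine enzyme (chromosome 11, 3000922 to 3057613), was measured at 82.3, 79.6 and 101 CPM in WT and 51.3, 49.4 and 47.5 in siARID1A. Every siARID1A library was below every WT library, and the fall of 0.83 (SE 0.11, adjusted p = 1.38e-08) left 56.3% of the WT level.

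YARS1, the tyrosine enzyme (chromosome 1, 32775237 to 32818153), gave 217, 194 and 218 CPM in WT and 122, 135 and 120.3 in siARID1A, a fall of 0.74 (SE 0.08, adjusted p = 4.42e-09). AARS1 (chromosome 16, 70252295 to 70289543) gave 537, 477 and 536 CPM in WT and 347, 317 and 307 in siARID1A, a fall of 0.68 (SE 0.08, adjusted p = 3.73e-08). In both genes the 2 groups were separate, and siARID1A held about the same share of the WT level, 60.04% and 62.6%. WARS1, GARS1, MARS1 and TARS1, the tryptophan, glycine, methionine and threonine enzymes, stood between 63.2% and 64.1% of WT. The smallest calls were HARS1 (-0.26) and NARS1 (-0.18), the histidine and asparagine enzymes. The NARS1 call was lost in 7 of 19 alternative analyses.

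**Figure D1:**
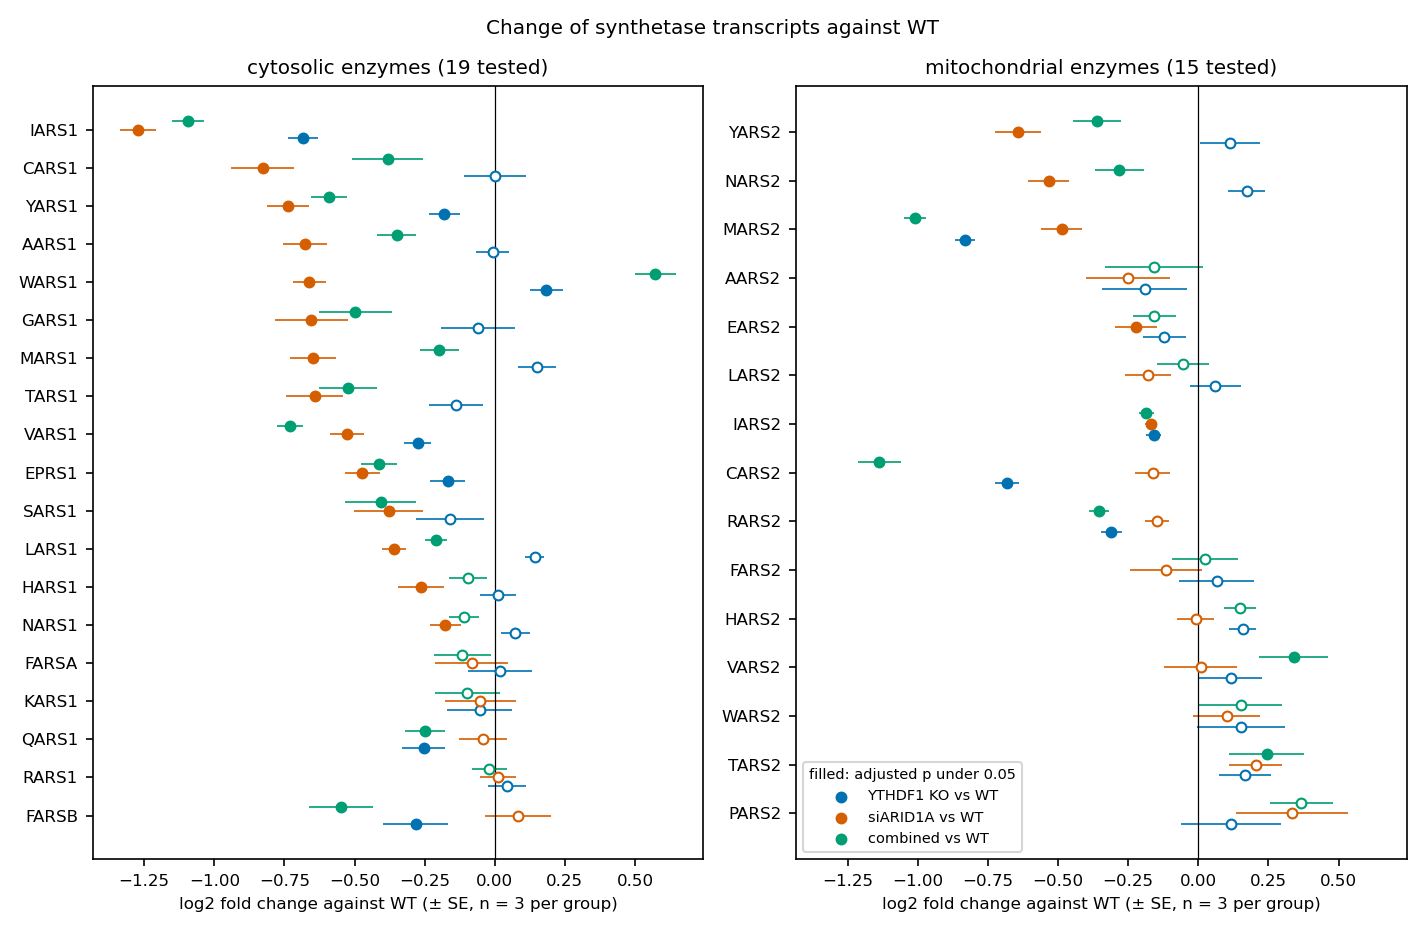
Log2 fold change against WT (horizontal axis, ± SE, 3 libraries per group) of the 19 cytosolic (left) and 15 mitochondrial (right) members tested, in YTHDF1 KO (blue), siARID1A (orange) and the combined group (green), with filled points for adjusted p under 0.05 and genes ordered by their siARID1A value. Of the cytosolic genes, 14 have a filled orange point to the left of 0, and WARS1 has green to the right and orange to the left.

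The changes are also given by place in the multisynthetase complex and by promoter letters, and neither split was tested. Of the 7 synthetases of the complex, 4 were lower with siARID1A (EPRS1, IARS1, LARS1 and MARS1) and KARS1, QARS1 and RARS1 did not pass. Of the 12 cytosolic members outside it, 10 were lower. The median was -0.36 inside and -0.58 outside the complex. Of the 7 cytosolic genes with a TGATGNAA match, all 7 were lower (median -0.65). Of the 9 with a promoter entry and no match, 4 were lower (median -0.08): EPRS1, HARS1, SARS1 and WARS1. The cytosolic genes without a promoter entry, LARS1 (-0.36), VARS1 (-0.53) and YARS1 (-0.74), were also lower and fall in neither group. The split by match was made after the values were known and is a description, and no match says only that these letters are absent from this window. YARS2, the 1 mitochondrial gene with a match, had the largest siARID1A change of its class.

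Summed over the class, cytosolic synthetase transcripts were lowest in siARID1A. The 19 cytosolic genes summed to 4366 ± 313 CPM in WT libraries (SD, n = 3), 4051 ± 66.8 with the knockout, 3043 ± 77.2 with siARID1A and 3397 ± 55.3 with both. The siARID1A sum was 69.7% of WT, or 67% when WT replicate 2, the lowest WT library at 4012, was left out. The combined group stood at 77.8% and YTHDF1 KO at 92.8%, or 74.8% and 89.2% without that library. The mitochondrial sums were 748 ± 12.7 CPM in WT libraries (SD, n = 3), 686 ± 11.3 with the knockout, 666 ± 10.7 with siARID1A and 654 ± 9.69 with both. They stood nearer to WT than the cytosolic sums with siARID1A (89%) and with both (87.4%). With the knockout they stood at 91.6%, about as far from WT as the cytosolic sum. IARS2 alone gave 298 of the 748.

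**Figure D2:**
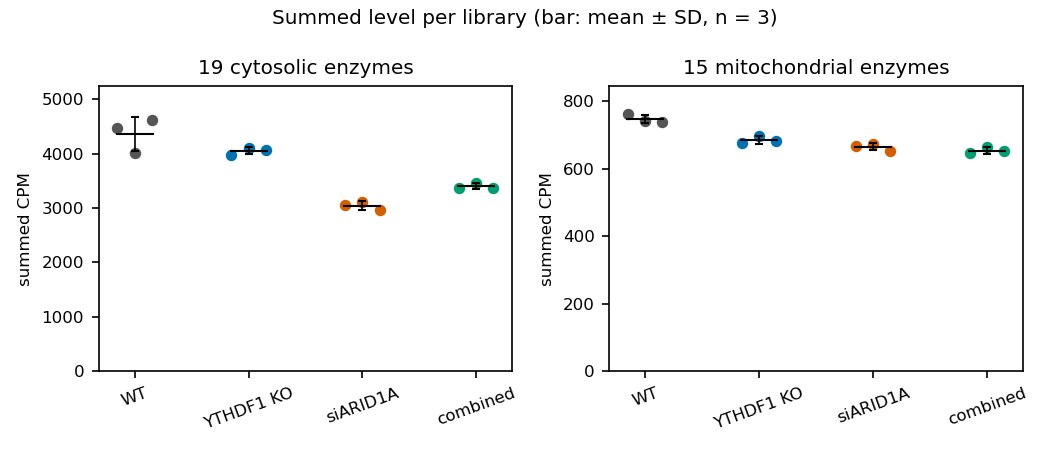
Summed CPM (vertical axis from 0) of the 19 cytosolic and the 15 tested mitochondrial genes in each library (points), with the mean ± SD of each group of 3 (bars). The siARID1A libraries lie lowest for the cytosolic genes, between 2960 and 3112, and the combined libraries next, between 3362 and 3461.

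In YTHDF1 KO cells a similar number of cytosolic synthetases were lower with the same silencing, with a smaller median change. In the combined group relative to YTHDF1 KO, 13 of 19 were lower and 1, WARS1, was higher (median -0.27). Over all genes tested, 10.9% were lower and 12.5% higher (median 0.01). The count was 13 lower without WT replicate 2, and ran from 9 to 13 when each library was left out in turn. The largest falls were VARS1 (0.46), GARS1 (0.44), YARS1 (0.41) and IARS1 (0.41). Counting both classes, 14 genes were lower with silencing in both backgrounds, which is 14 of the 19 lower in WT cells and 14 of the 16 lower in knockout cells (73.7% and 87.5%). Over all genes tested, 1458 were lower in both, which is 34.2% of the 4268 lower in WT cells and 72.3% of the 2016 lower in knockout cells. These comparisons share no library. Across the 34 tested members the 2 sets of changes correlated at r = 0.62 (Spearman 0.63), against 0.47 over all genes (Spearman 0.51). By class, r was 0.42 for the 19 cytosolic genes, below that over all genes, while their Spearman value (0.60) was above that over all genes. For the 15 mitochondrial genes r was 0.78 (Spearman 0.74). These values are a description across genes, which are not independent replicates.

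The difference between these backgrounds was tested directly, as the change with silencing in knockout cells minus that in WT cells. By sign alone it lay above 0 for 15 of 19 cytosolic genes and below 0 for 4. It was called above 0 for 6 and below 0 for 1, against 8.87% and 8.22% of all genes. The 6 called were WARS1 (1.05), IARS1 (0.86), CARS1 (0.44), AARS1 (0.33), YARS1 (0.33) and MARS1 (0.30), and FARSB was the 1 called below (-0.35). In all of the 6 except WARS1, the transcript fell with silencing in both backgrounds and by less in the knockout. ARID1A itself was also lowered less there, with a log2 fold change of -1.95 in WT cells and -1.57 in knockout cells (difference 0.38). YTHDF1 was called higher in the combined group than in YTHDF1 KO (0.31). Against WT it gave -1.83 in YTHDF1 KO and -1.51 in the combined group. The part of this weaker silencing and of the YTHDF1 difference in the smaller falls was not tested. CARS1 fell by 0.83 in WT cells and by 0.38 in knockout cells, where its libraries held 88.9, 88.6 and 85.9 CPM before and 62.1, 72.6 and 66.9 after silencing (interaction SE 0.13, adjusted p = 0.00882). The calls of WARS1, IARS1 and CARS1 held in every alternative run. Those of AARS1, FARSB, YARS1 and MARS1 were lost in 5, 5, 6 and 12 of them. Leaving out YTHDF1 KO replicate 1 or 3, siARID1A replicate 3 or combined replicate 2 left 3 of the 6, and without WT replicate 2 there were 8. The FARSB call was lost without YTHDF1 KO replicate 2 or 3, siARID1A replicate 2, or combined replicate 1 or 3. Of the 15 mitochondrial genes, edgeR called 0 in either direction, with 1 in each direction at an unadjusted p under 0.05, and DESeq2 called 1 below 0 (CARS2).

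**Figure D3:**
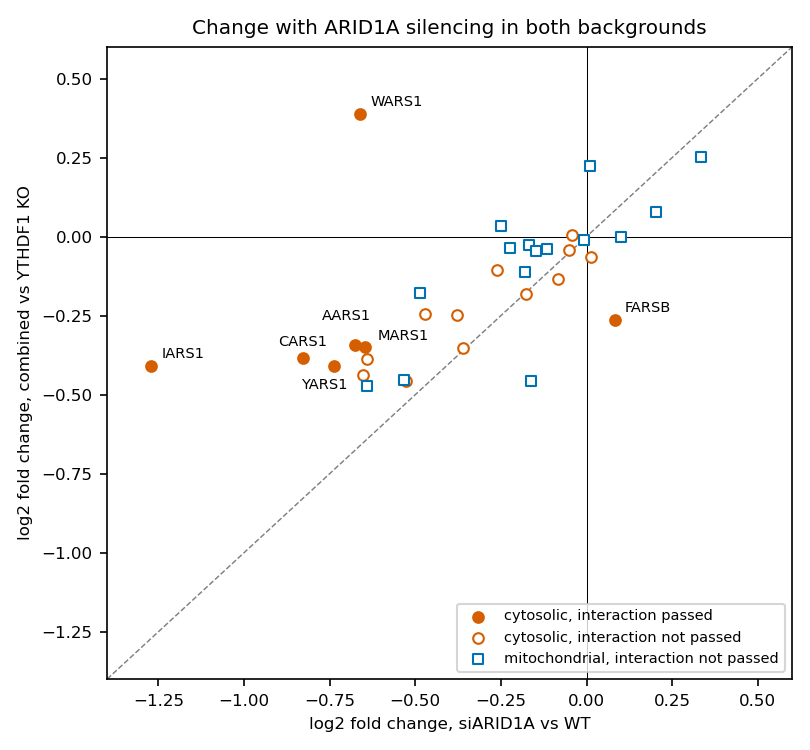
Log2 fold change with ARID1A silencing in WT cells (horizontal axis) and in YTHDF1 KO cells (vertical axis) for the 34 tested members, as circles (cytosolic) and squares (mitochondrial), filled where the difference between the 2 changes passed adjusted p under 0.05; the dashed line marks equal change. WARS1 lies farthest above the line, at -0.66 and 0.39, and FARSB lies below it.

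WARS1, the tryptophan enzyme, which interferon gamma is known to induce, was the only member whose called changes with silencing had opposite directions in the 2 backgrounds. Its level (chromosome 14, 100333788 to 100376805) was 168, 147 and 163 CPM in the WT libraries, 101, 99 and 102 with siARID1A, 177, 185 and 179.8 with the knockout and 251, 227 and 231 with both. All siARID1A libraries were below all WT libraries, and all combined libraries were above those of the other 3 groups. With silencing it was lower in WT cells (-0.66, SE 0.06, adjusted p = 1.94e-08) and higher in knockout cells (0.39, SE 0.05, adjusted p = 0.000117). The difference was 1.05 (SE 0.08, adjusted p = 2.41e-08), between 1.01 and 1.08 over the alternatives. Against siARID1A, the combined group was 2.35 times as high. The call in YTHDF1 KO against WT (0.18, adjusted p = 0.0302) was lost without WT replicate 2 (0.14, adjusted p = 0.0915), without any 1 knockout library, and without the genes of chromosomes 2 and 9.

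Interferon gamma type genes are given beside WARS1. Of 10 listed, 9 were tested. In siARID1A against WT 5 were higher, against 22.1% of all genes. In YTHDF1 KO 6 were higher and 1, GBP2, lower, against 19.6% and 20.8%. In the combined group 7 were higher, against 25.6%. For the interaction 0 were called above 0 and 2 called below, against 8.87% and 8.22%, while WARS1 was called above 0. By sign alone, 5 of the 9 lay above 0 and 4 below. TAP1, a peptide transporter of antigen presentation, rose by 0.96 with siARID1A, 0.72 with the knockout and 1.49 with both. The guanylate-binding protein GBP1 rose by 1.54, 0.72 and 2.76 in the same order. IDO1, which breaks down tryptophan, was at 0 in all WT and siARID1A libraries, and reached 0.288, 0.0484 and 0.534 CPM with the knockout and 2.01, 1.24 and 1.51 with both. The part of interferon-related genes in the WARS1 result was not tested.

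With the YTHDF1 knockout alone fewer members were called. Against WT, 6 of 19 cytosolic genes were lower (IARS1, FARSB, VARS1, QARS1, YARS1 and EPRS1) and 1 was higher (WARS1), with a median of -0.05. Over all genes tested 20.8% were lower and 19.6% higher (median -0.01). Without WT replicate 2, 8 were lower and none of the 19 was higher, without WT replicate 1 the count lower was 3, and with scaling to library totals 3 were lower and 3 higher. In the same comparison 4 of the 5 epithelial markers fell (EPCAM by 2.14, KRT8 by 1.69, KRT18 by 1.33 and CDH1 by 1.32), and of the 4 A549 markers AKR1B10 and AKR1C2 fell by 2.92 and 2.66 and NQO1 rose by 0.37. The part of these markers in the synthetase results was not tested. IARS1 gave 337, 352 and 349 CPM in YTHDF1 KO, all below WT and all above siARID1A, a fall of 0.68 (SE 0.05, adjusted p = 9.7e-09). VARS1, the valine enzyme (chromosome 6, 31777518 to 31795953), gave 209.8, 198 and 188 CPM in WT and 162, 168 and 162 in YTHDF1 KO, without overlap, a fall of 0.28 (SE 0.05, adjusted p = 0.00122). QARS1, the glutamine enzyme, fell by 0.25 with the knockout and gave -0.04 with siARID1A (adjusted p = 0.663). The EPRS1 and YARS1 calls (-0.17 and -0.18) were lost in 15 and 8 of 19 alternatives.

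With both changes, the cytosolic family stood between the siARID1A and YTHDF1 KO groups in its sum, and single genes went different ways. Against WT, 13 of 19 were lower and 1, WARS1, higher (median -0.35), with 25.9% lower and 25.6% higher over all genes. Without WT replicate 2, 14 were lower and 1 higher. The WT libraries are shared by the 3 comparisons with WT, so their calls are not independent. The same markers EPCAM, KRT8 and KRT18 were lower there (-1.08, -1.41 and -1.02), as were AKR1B10 and AKR1C2 (-2.92 and -2.06), while NQO1 was higher (0.55) and the endothelial marker PECAM1 was higher at under 0.6 CPM (2.79), and their part was not tested. Against siARID1A, 5 were higher (WARS1, MARS1, CARS1, AARS1 and IARS1) and 3 lower (FARSB, QARS1 and VARS1), with 18.2% higher and 17.2% lower over all genes. VARS1 was lowest in the combined group, at 119, 118 and 122 CPM, below all of the siARID1A libraries (136, 145 and 133). Its combined level was 60.3% of WT (log2 -0.73, SE 0.05, adjusted p = 8.82e-10), and its interaction was 0.07 (adjusted p = 0.675). YARS1 gave 184, 189 and 182 CPM in YTHDF1 KO and 134, 145 and 139 in the combined group, against 122, 135 and 120.3 in siARID1A. The combined and siARID1A libraries of YARS1 overlapped.

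MARS1, CARS1 and AARS1 were higher in the combined group than in siARID1A by 0.45, 0.45 and 0.32. AARS1 gave 388, 424 and 403 CPM in the combined group and 506, 518 and 518 in YTHDF1 KO. Its combined libraries lay above all siARID1A libraries and below all libraries of WT and YTHDF1 KO. The IARS1 call against siARID1A (0.18, adjusted p = 0.0448) was lost in 12 of 18 alternatives. Under scaling to library totals without TMM, 10 cytosolic genes were higher and 1 lower in this comparison, and without combined replicate 2 the count lower was also 1.

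**Figure D4:**
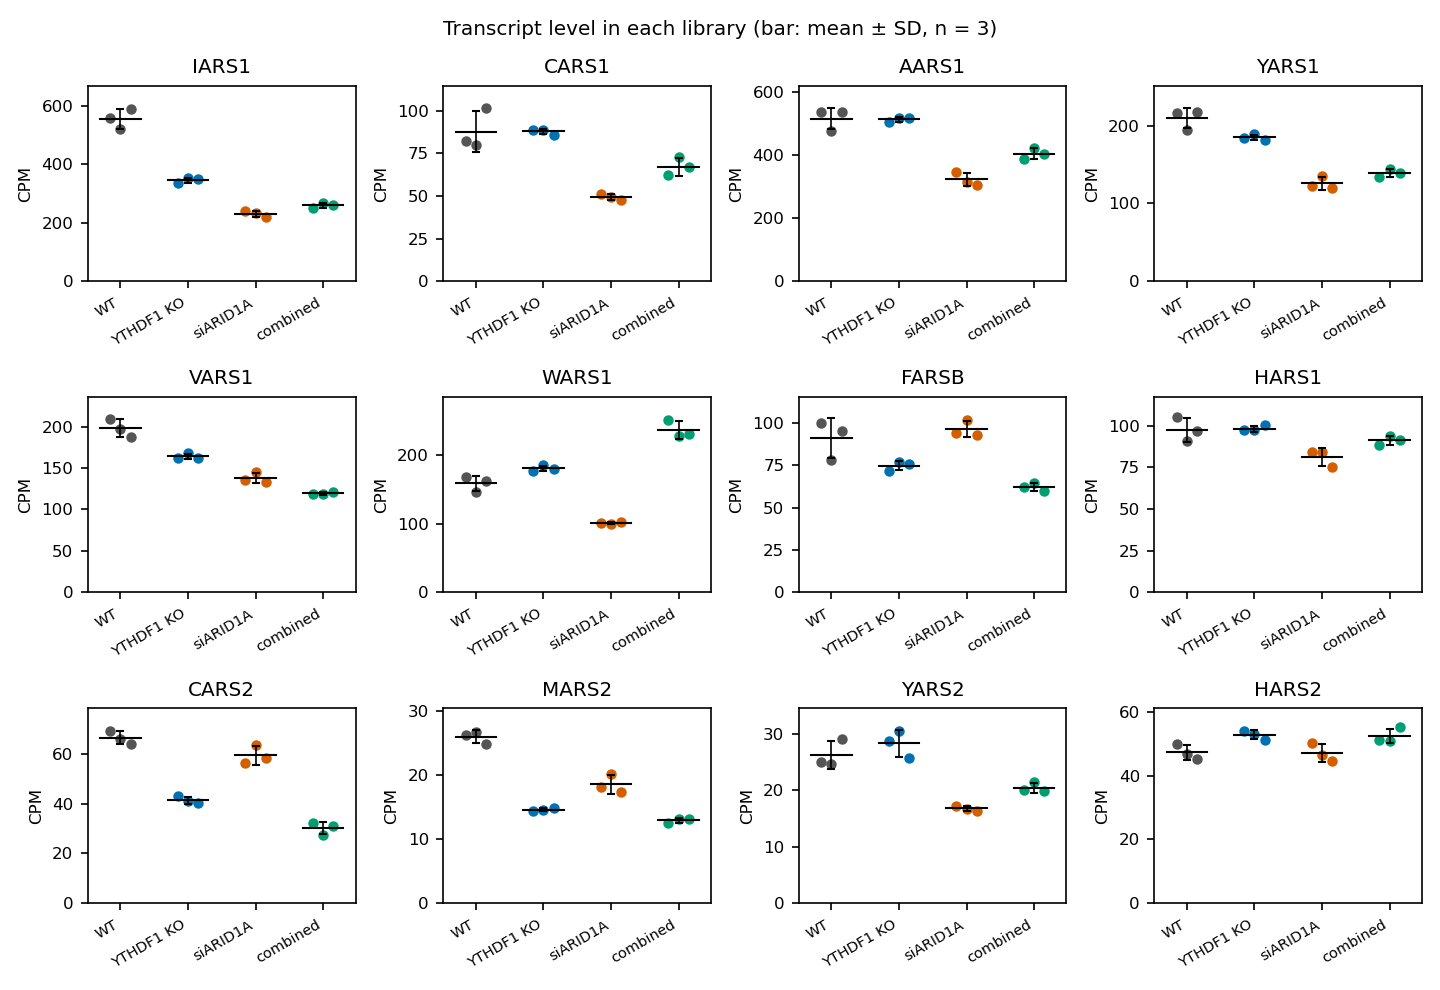
CPM in each library (points; vertical axis from 0) of 12 named members in the 4 groups, with the mean ± SD of 3 libraries (bars). IARS1, CARS1, AARS1 and YARS1 are lowest in siARID1A, WARS1 is highest in the combined group, and CARS2 and MARS2 are lowest in the combined group.

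Mitochondrial synthetases were called in both directions, most of them lower, and the difference between the classes was not tested. With siARID1A, 5 of 15 were lower (YARS2, NARS2, MARS2, EARS2 and IARS2), against 23% of all genes, with a median of -0.16. For the higher direction edgeR called 0, with 1 at an unadjusted p under 0.05, and DESeq2 called 1 (TARS2). Without siARID1A replicate 1, or with scaling to library totals, the count lower was 3. In YTHDF1 KO, 4 of 15 were lower (MARS2, CARS2, RARS2 and IARS2), near the 20.8% of all genes, edgeR and DESeq2 called 0 higher, and 1 had an unadjusted p under 0.05 in that direction. In the combined group against WT, with 25.9% of all genes lower and 25.6% higher, 6 were lower (CARS2, MARS2, YARS2, RARS2, NARS2 and IARS2) and 2 higher (VARS2 and TARS2), or 3 lower and 4 higher with scaling to library totals, and 1 higher without combined replicate 2. In the combined group against YTHDF1 KO, 3 were lower (YARS2, CARS2 and NARS2) against 10.9% of all genes, and edgeR and DESeq2 called 0 higher, with 1 at an unadjusted p under 0.05. Against siARID1A, 3 were higher (VARS2, YARS2 and NARS2) and 3 lower (CARS2, MARS2 and RARS2), near the 18.2% and 17.2% of all genes, and 1 was higher without siARID1A replicate 2, siARID1A replicate 3 or combined replicate 2. AARS2, FARS2, HARS2, LARS2, PARS2 and WARS2 passed in none of the 6 comparisons. Leaving out WT replicate 2, mitochondrial counts against WT were 5 lower and 1 higher in siARID1A. They were 3 lower and 0 higher in YTHDF1 KO, and 7 lower and 2 higher in the combined group.

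YARS2, the mitochondrial tyrosine enzyme (chromosome 12, 32727490 to 32755902), gave 24.9, 24.6 and 29.1 CPM in the WT libraries, 28.8, 30.4 and 25.7 with the knockout, 17.3, 16.7 and 16.3 with siARID1A and 19.95, 21.4 and 19.8 with both. Both silenced groups were separate from both unsilenced ones and from each other. It fell by 0.64 with silencing in WT cells (SE 0.08, adjusted p = 5.34e-06) and by 0.47 in knockout cells (SE 0.08, adjusted p = 0.000508). NARS2, the mitochondrial asparagine enzyme (chromosome 11, 78435961 to 78574874), had the same order of groups, at 28.9, 26.7 and 27.5 CPM in the WT libraries, 30.3, 33.7 and 29.6 with the knockout, 20.8, 18.8 and 17.8 with siARID1A and 20.7, 25.2 and 22.3 with both. It fell by 0.53 in WT cells (adjusted p = 5.73e-05) and by 0.45 in knockout cells (adjusted p = 0.000763). The siARID1A and combined libraries of NARS2 overlapped, at up to 20.8 and from 20.7 CPM, and both groups were below WT.

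CARS2, the mitochondrial cysteine enzyme (chromosome 13, 110641412 to 110713603), was lower with the knockout and lower again when ARID1A was silenced in knockout cells. Its level was 69.3, 66.1 and 64.1 CPM in the WT libraries, 42.9, 41.3 and 40.2 with the knockout, 56.3, 63.6 and 58.3 with siARID1A and 32.1, 27.5 and 31.2 with both. The knockout libraries were all below WT and siARID1A, and the combined libraries were below all others. It fell by 0.68 in YTHDF1 KO (SE 0.04, adjusted p = 7.4e-08) and by 1.14 in the combined group (SE 0.08, adjusted p = 7.36e-12), and gave -0.16 in siARID1A (adjusted p = 0.0843). With silencing it fell by 0.46 in knockout cells (adjusted p = 0.000106), and the difference between the backgrounds did not pass (-0.29, adjusted p = 0.0674). Its cytosolic counterpart CARS1 gave 0.00 with the knockout (adjusted p = 0.987) and fell by 0.83 with siARID1A. RARS2, the mitochondrial arginine enzyme (chromosome 6, 87514378 to 87590003), gave 32.6, 29.99 and 31.4 CPM in the WT libraries, 24.8, 25.2 and 25.8 with the knockout, 27.2, 28.8 and 28.7 with siARID1A and 24.4, 24.5 and 24.6 with both. Both groups with the knockout were below all WT and siARID1A libraries. It fell by 0.31 in YTHDF1 KO (adjusted p = 0.00269), and -0.15 in siARID1A did not pass (adjusted p = 0.135).

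MARS2, the mitochondrial methionine enzyme (chromosome 2, 197705369 to 197708387), was lower in all 3 groups than in WT. It gave 26.3, 26.8 and 24.9 CPM in the WT libraries, 14.5, 14.5 and 14.9 with the knockout, 18.1, 20.2 and 17.3 with siARID1A and 12.5, 13.2 and 13.1 with both, with no overlap between groups. The falls were 0.83 (SE 0.03, adjusted p = 6.33e-08), 0.49 (SE 0.07, adjusted p = 0.000113) and 1.01 (SE 0.04, adjusted p = 1.78e-09). The smaller mitochondrial calls were less stable. IARS2 fell by 0.16, 0.17 and 0.19 in the same 3 comparisons, and these calls were lost in 14, 8 and 3 of 19 alternatives.

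Of the members on chromosomes 2 and 9, IARS1 and MARS2 moved further than the genes around them, and FARSB did not in YTHDF1 KO. The 1231 tested genes of chromosome 2 had a median against WT of -0.41 with the knockout, 0.01 with siARID1A and -0.42 with both. The 712 of chromosome 9 had medians of -0.36, -0.41 and -0.38. The 100 tested genes nearest IARS1 had medians of -0.39, -0.47 and -0.43, so that IARS1 lay below its neighbours by 0.29, 0.80 and 0.67. MARS2 lay below its neighbours by 0.43, 0.52 and 0.70. For the interaction, the neighbours of IARS1 had a median of 0.53, against 0.86 for IARS1. The part of these blocks in the IARS1, MARS2 and FARSB results was not tested beyond these differences.

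FARSB, a subunit of the phenylalanine enzyme (chromosome 2, 222570536 to 222656337), gave 100.3, 78 and 95.3 CPM in the WT libraries, 71.7, 77.1 and 75.9 with the knockout, 94.4, 102 and 93 with siARID1A and 62.5, 64.5 and 60.03 with both. The combined libraries were below all others, while WT replicate 2 lay just above the highest knockout library. It fell by 0.28 in YTHDF1 KO (SE 0.12, adjusted p = 0.00576), a call lost without WT replicate 1 (-0.21, adjusted p = 0.0505), and its neighbours had a median of -0.43. It fell by 0.55 in the combined group (SE 0.11, adjusted p = 2.82e-06), where its neighbours had a median of -0.37. FARSA, the other subunit, on chromosome 19, passed in none of the 6 comparisons and lay between -0.13 and 0.02. CARS2 on chromosome 13 had no such neighbourhood: the 80 tested genes nearest it had medians of -0.07, -0.07 and -0.09 in the 3 comparisons with WT.

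**Figure D5:**
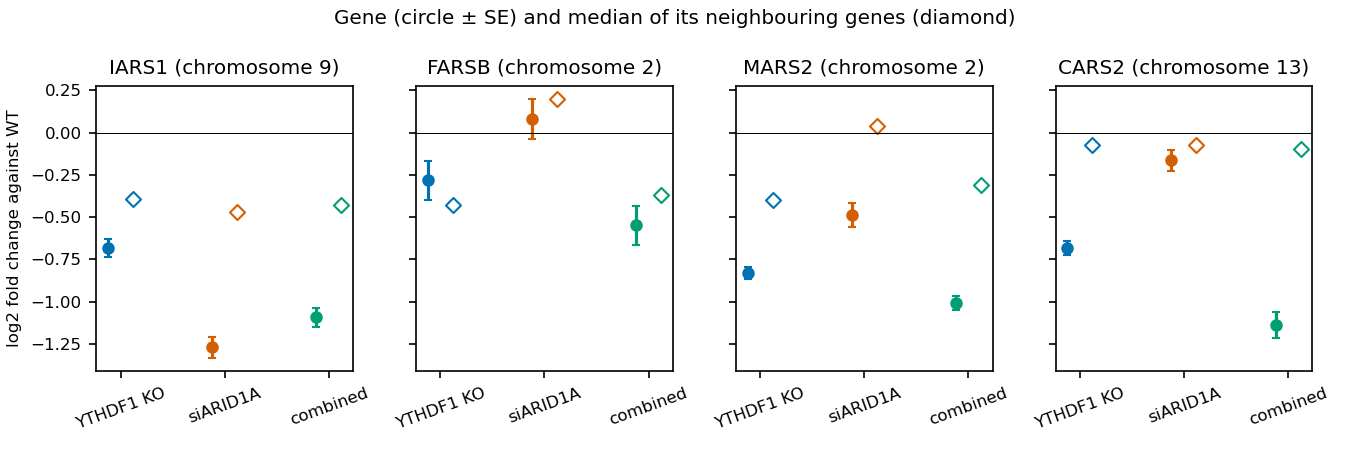
Log2 fold change against WT (vertical axis) of IARS1, FARSB, MARS2 and CARS2 (circles ± SE, 3 libraries per group) beside the median of the tested genes nearest to each on its chromosome (open diamonds; 100 genes, 80 for CARS2). The circles of IARS1 and MARS2 lie below their diamonds in all 3 groups, and the FARSB circle lies above its diamond in YTHDF1 KO.

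HARS1 and HARS2 are neighbours on chromosome 5 (140673904 to 140691862 and 140691426 to 140699318), transcribed away from each other from RefSeq starts 85 bases apart. HARS1 gave 105, 90.7 and 96.9 CPM in the WT libraries, 97.4, 97.2 and 100.3 with the knockout, 84.5, 84.3 and 75.2 with siARID1A and 88.2, 94 and 91.5 with both. Its siARID1A libraries were below all others, a fall of 0.26 from WT (SE 0.08, adjusted p = 0.00353). HARS2 gave 50, 46.8 and 45.2 CPM in the WT libraries, 54.1, 53.1 and 51.3 with the knockout, 50.2, 46.4 and 44.6 with siARID1A and 51.3, 51 and 55.1 with both. Its WT and siARID1A libraries overlapped (-0.01, SE 0.07, adjusted p = 0.938), and the difference between the 2 genes was not tested. Their annotated gene bodies overlap by 437 bases on opposite strands, and the strand setting of the counting is not given in the sources used here, so reads there may be credited to either.

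Genes of the ATF4 programme outside the family moved in the same comparisons. With siARID1A, 14 of 23 were lower and 2 higher (median -0.65), against 23% and 22.1% of all genes, and in the combined group against WT 17 were lower and 1 higher (median -0.59), against 25.9% and 25.6%. ATF4 itself, on chromosome 22, gave 563, 524 and 710.5 CPM in WT and 374, 381 and 351 in siARID1A, without overlap, a fall of 0.70 (SE 0.14, adjusted p = 4.44e-07). The serine synthesis enzymes PSAT1 and PHGDH fell by 1.89 and 1.77, and MTHFD2, of mitochondrial folate metabolism, by 1.70. PPP1R15A, which directs dephosphorylation of eIF2alpha, rose by 2.10, and ATF3 by 0.77. In the combined group against YTHDF1 KO, 10 were lower and 3 higher, against 10.9% and 12.5% of all genes. For the interaction 11 were called above 0 and 1 called below (median 0.36), against 8.87% and 8.22% of all genes, ATF4 among the 11 (0.39, adjusted p = 0.0296). By sign alone, 18 lay above 0 and 5 below.

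In YTHDF1 KO, 13 of the 23 were lower and 1 higher (median -0.32), against 20.8% and 19.6% of all genes, though ATF4 did not pass (-0.05, adjusted p = 0.673). The largest falls included VLDLR (1.52, on chromosome 9) and the amino acid transporter subunits SLC7A5 (1.18) and SLC3A2 (0.98). With siARID1A, SLC7A5 fell by 0.24 and SLC3A2 gave 0.01 (adjusted p = 0.957). Levels of ATF4 protein and of charged transfer RNA were not analysed here, and the part of ATF4 in the synthetase changes was not tested.

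Other genes of the charging machinery are given by list. Of the 3 scaffolds of the multisynthetase complex, EEF1E1 was lower with siARID1A (-0.59, adjusted p = 0.00172), and AIMP1 and AIMP2 did not pass (0.13 and 0.17). Of 10 genes of transfer RNA processing and export, 5 were lower with siARID1A, with XPOT, the exporter of transfer RNA from the nucleus, lowest (-1.01, adjusted p = 2.31e-11), then POP1 (-0.67) and ELAC2 (-0.48). XPOT is also in the ATF4 list. Of 10 genes for proofreading and special charging, 2 were higher (PTRH2 and GATB), and of 9 mitochondrial translation factors, 3 were lower (MRRF, GFM1 and TUFM) and 1 higher (MTIF2). Over all genes 22.1% were higher and 23% lower. The 2 of 10 higher for proofreading and special charging lay near the share of all genes, and the 1 of 9 higher translation factors below it. The 5 of 10 lower in transfer RNA processing and export and the 3 of 9 lower translation factors lay above the share of all genes called lower. Of the 6 listed eIF2alpha kinases and genes of the GCN2 arm, 2 were higher, a share above that of all genes, and 1 was lower. GCN2 (EIF2AK4) and its partner GCN1 did not pass (0.08 and 0.06), nor did EIF2S1. EIF2AK1, the heme-sensing kinase, fell by 0.51, and EIF2AK2 and EIF2AK3, the kinases PKR and PERK, rose by 0.35 and 0.31.

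Exons of several members overlap other genes, so that reads can be shared or dropped in counting. VARS2 overlaps GTF2H4 and HARS2 overlaps ZMAT2 on the same strand. On the opposite strand, MARS1 overlaps DDIT3 and ARHGAP9, KARS1 overlaps TERF2IP, WARS1 overlaps WDR25, YARS1 overlaps S100PBP, EARS2 overlaps UBFD1 and CARS2 overlaps ING1, and CARS1, GARS1, LARS1 and NARS2 overlap noncoding transcripts. Among the members named above, IARS1, AARS1, VARS1, FARSB, MARS2, RARS2 and YARS2 overlap no annotated exon of another gene in GENCODE 29.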

How the data were processed

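Per the labels' protocols, total RNA was made into stranded libraries. Per the submitters' processing notes, the tools were STAR 2.7.0d, Trim Galore 0.6.6, edgeR 3.32.1 and featureCounts 2.0.1, with GRCh38 as build. Raw counts were deposited by the authors in 1 table of 60617 Ensembl genes and 12 libraries, with no normalization. The annotation release and strand setting are not given in the sources used here. Symbols were matched for 60261 identifiers and GENCODE 29 positions for 58542.

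All 12 libraries went into 1 fit with a coefficient for each group in edgeR 4.0.16 (R 4.3.3, limma 3.58.1): filterByExpr (18524 genes tested, 34 of the 35 members among them), TMM factors (0.912 to 1.055), and edgeR's two-sided quasi-likelihood test (robust), its p-values adjusted by Benjamini-Hochberg over every tested gene, with a threshold of 0.05. The biological coefficient of variation was 9.44%. Standard errors come from replicate SDs of log2 CPM with a prior count of 2. The code was tested on simulated data. Python 3.11.15 with pandas 2.3.3 made summaries.

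The members and lists were chosen with earlier results of these data known. Members given by library were the 3 largest calls per class in each comparison with WT and in the interaction, with WARS1, HARS1, HARS2 and AARS1. Lists of related genes were fixed as names. Exceptions named after their values were seen are the smaller calls given by name. Alternatives were RLE scaling, library totals, DESeq2 1.42.0, no filter, a mean of at least 100 counts, a replicate block, omission of chromosomes 2 and 9, and each library left out. The median of neighbouring genes and the split by promoter match were added after the data were seen. Protein sequences were not used here.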

Additional observations from a re-analysis of the deposited data

Results flagged for a closer look

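For 7 members the change with ARID1A silencing in YTHDF1 KO cells differed from that in WT cells by edgeR's interaction test. The differences on the log2 scale were 1.05 for WARS1 (adjusted p = 2.41e-08), 0.86 for IARS1 (adjusted p = 5.27e-07), 0.44 for CARS1 (adjusted p = 0.00882), 0.33 for AARS1 (adjusted p = 0.0239), 0.33 for YARS1 (adjusted p = 0.0206), 0.30 for MARS1 (adjusted p = 0.0356) and -0.35 for FARSB (adjusted p = 0.0336). WARS1 had calls in opposite directions in the 2 backgrounds. The IARS1 value stands beside a median of 0.53 for its 100 nearest tested genes on chromosome 9. ARID1A itself had a difference of 0.38 (-1.95 in WT cells and -1.57 in knockout cells), whose part in these values was not tested.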

How the results depend on the processing

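Of 3858 values (34 members, 6 comparisons, up to 19 alternatives), 3637 kept their side of the threshold (136 of them, none a reported call, changed sign), 172 lost a call, 49 gained one and 0 reversed. Counts of calls that moved by over 1.5 times were as follows, and the cause was not tested. With library totals in place of TMM, YTHDF1 KO against WT gave 3 in place of 1 cytosolic genes higher, 3 in place of 6 lower and 3 in place of 0 mitochondrial genes higher. Mitochondrial genes then gave 1 in place of 0 higher and 3 in place of 5 lower in siARID1A, and 4 in place of 2 higher and 3 in place of 6 lower in the combined group against WT. Against siARID1A the combined group gave 10 in place of 5 cytosolic genes higher and 1 in place of 3 lower. Library totals also moved the median of all genes to 0.08, 0.05, 0.13, 0.06 and 0.09 in the 5 pairwise comparisons (YTHDF1 KO, siARID1A and combined against WT, then combined against YTHDF1 KO and against siARID1A). The share of all calls that were higher became 61.2%, 57.1%, 63.4%, 63.5% and 62.2%, from 48.5%, 49%, 49.7%, 53.5% and 51.3%. DESeq2 and the minimum mean of 100 counts each gave 3 cytosolic genes higher in YTHDF1 KO against WT, 1 mitochondrial gene higher in siARID1A against WT and 1 with an interaction below 0. RLE scaling gave those 2 single mitochondrial calls as well. Without chromosomes 2 and 9 there were 0 cytosolic genes higher in YTHDF1 KO, 1 mitochondrial gene higher in the combined group against WT and 0 cytosolic genes with an interaction below 0, the last because FARSB itself lies on chromosome 2 and was left out.

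With each library left out in turn, cytosolic counts ran from 0 to 2 higher and from 3 to 8 lower in YTHDF1 KO against WT, from 1 to 3 lower in the combined group against siARID1A, and from 3 to 8 above 0 and 0 to 1 below 0 for the interaction. Mitochondrial counts ran from 0 to 1 higher in YTHDF1 KO against WT, 0 to 1 higher and 3 to 6 lower in siARID1A against WT, 1 to 3 higher in the combined group against WT, 0 to 1 higher against YTHDF1 KO and 1 to 3 higher against siARID1A, and 0 to 1 in either direction for the interaction. The 14 cytosolic genes lower in siARID1A against WT became 13 to 14 in every alternative. Same-numbered libraries did not deviate together (correlations from -0.042 to 0.033 over 18 pairs), so no pairing by number was seen. Whether they shared a culture or preparation cannot be told from this. With the number as a replicate block, 6 calls were lost among 204 values, and 14 cytosolic genes were lower in siARID1A. Without filtering, 12 calls were lost. Depth limits SARS2 (1 to 7 counts per library) and, less so, PARS2, the lowest member tested.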

Other observations

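The 2 cysteine enzymes differed in which single change called them, and both were lower in the combined group against WT. CARS2 stood at 62.4% of WT in YTHDF1 KO and 89.3% in siARID1A, and CARS1 at 100.1% and 56.3%. For tyrosine, asparagine, methionine and isoleucine both enzymes were called lower with siARID1A: YARS1 and YARS2 stood at 60.04% and 64.1% of WT, NARS1 and NARS2 at 88.5% and 69.1%, MARS1 and MARS2 at 63.8% and 71.3%, and IARS1 and IARS2 at 41.4% and 88.9%. The mitochondrial alanine and threonine enzymes AARS2 and TARS2 gave -0.25 and 0.20 and did not pass, against -0.68 and -0.64 for AARS1 and TARS1. EPRS1, the glutamate and proline enzyme, and EARS2, the mitochondrial glutamate enzyme, were also both called lower, at 72.1% and 85.7% of WT. PARS2, the mitochondrial proline enzyme, did not pass (0.33). Differences between the members of these pairs were not tested.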
